A study of Mus musculus with 4 samples.

Results

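Toll-like receptors are membrane proteins with which innate immune cells recognise molecules of microbes. Of the genes of this system, 10 are described here, chosen by name with earlier results of these data known. These are the receptors Tlr1, Tlr2, Tlr4, Tlr7, Tlr8, Tlr9 and Tlr13, the lipopolysaccharide-binding proteins Cd14 and Ly96, and the adaptor Myd88. They are 10 of 23235 genes in the deposited tables, and all 10 were found and reached 1 FPKM (fragments per kilobase of transcript, scaled to the mapped fragments of the library, so that levels can be set side by side between genes). RNA was sequenced from acute myeloid leukaemia driven by NRASG12V together with the fusion Mll-AF9. The cells had been injected into the tail vein of SCID/Beige mice, which lack working B and T lymphocytes but keep their own myeloid, erythroid and stromal cells, and the mice were left for 20 days. The on group (1 library) expressed NRASG12V. The off groups (1 library each, named 48, 72 and 96, read here as hours) are those in which its expression was off. Doxycycline, injected into the abdomen and then given in drinking water until the end, is described in the same words for all 4 libraries, so the labels do not say whether the on library had received it. All 4 share the genotype, and drug, elapsed time and loss of NRASG12V cannot be told apart. The labels used here name neither the promoter behind NRASG12V nor the tissue taken, nor do they say whether each library was a separate animal.

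Surface receptors of the family bind lipids and proteins of microbes: Tlr2 pairs with Tlr1 or Tlr6 to bind lipoproteins, and Tlr4 binds lipopolysaccharide together with Ly96, to which Cd14 hands it over. Tlr7, Tlr8, Tlr9 and Tlr13 sit in endosomes and read nucleic acids, in order single-stranded RNA for the first pair, DNA rich in unmethylated CpG, and bacterial ribosomal RNA. Each of these receptors passes its signal through Myd88, which recruits IRAK kinases and TRAF6 and ends in NF-kB and inflammatory cytokines. Monocytes, macrophages, neutrophils and dendritic cells are the cells best known for these genes.

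Promoter sequence is given as a description, and its part in the changes was not tested. RefSeq promoters of build GRCm38.p6 matched 6 of the 10 genes (Tlr1, Tlr2, Tlr8, Tlr9, Tlr13 and Myd88), and Tlr4, Tlr7, Cd14 and Ly96 had no entry. In the 250 bases before the start, the letters GAGGAA (the core read by the myeloid factor PU.1, searched on both strands) occurred at a start of 4 of the 6 genes (25.9% of all 27025 genes, 23.3% of all 32851 promoters). The letters TGANTCA, the site of AP-1, occurred at 1 of the 6 (Tlr9; 7.82% of all genes, 6.75% of all promoters), and GAAA repeated after a gap of 2 bases, the core of an interferon response element, at 1 of the 6 (Myd88; 3.46% and 2.98%). TGANTCA and the GAAA pair were likewise searched on both strands. The sequences below are those of 2 genes that were lower in every off library (Tlr13 and Myd88) and 2 that were not (Tlr8 and Tlr9), on the strand of the gene. They are chrX:106143025-106143274 on the plus strand for Tlr13, chr9:119340019-119340268 on the minus strand for Myd88, chrX:167264330-167264579 on the minus strand for Tlr8 and chr9:106222348-106222597 on the plus strand for Tlr9. Capitals mark GAGGAA or its reverse complement in the receptor genes and the GAAA pair with its gap in Myd88.
Tlr13: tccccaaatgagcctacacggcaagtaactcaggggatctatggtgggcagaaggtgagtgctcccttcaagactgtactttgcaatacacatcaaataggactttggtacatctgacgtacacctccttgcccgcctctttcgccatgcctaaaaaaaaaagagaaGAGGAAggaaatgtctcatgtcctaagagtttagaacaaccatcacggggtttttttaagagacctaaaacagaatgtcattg
Myd88: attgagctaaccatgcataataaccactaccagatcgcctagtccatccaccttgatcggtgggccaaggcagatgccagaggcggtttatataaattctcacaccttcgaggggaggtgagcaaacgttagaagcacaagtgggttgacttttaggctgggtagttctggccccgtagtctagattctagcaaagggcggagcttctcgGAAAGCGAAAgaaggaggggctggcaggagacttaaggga
Tlr8: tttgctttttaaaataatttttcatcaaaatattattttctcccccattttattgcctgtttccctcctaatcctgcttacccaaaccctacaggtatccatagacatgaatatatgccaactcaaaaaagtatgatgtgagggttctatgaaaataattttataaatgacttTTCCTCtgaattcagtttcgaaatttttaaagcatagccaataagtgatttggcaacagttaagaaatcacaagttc
Tlr9: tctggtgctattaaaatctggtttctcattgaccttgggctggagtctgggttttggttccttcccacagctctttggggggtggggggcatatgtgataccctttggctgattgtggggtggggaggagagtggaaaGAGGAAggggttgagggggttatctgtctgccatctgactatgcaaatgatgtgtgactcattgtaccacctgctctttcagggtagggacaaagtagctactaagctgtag
GAGGAA thus stood in Tlr13, which was lower in the off libraries, and equally in Tlr8 and Tlr9, which were above the on library at 48 h. It also stood at a start of Tlr1 and was absent from Tlr2 and Myd88, each lower in every off library. Its first base lay 83 bases before the start in Tlr13, 77 in Tlr8 and 112 in Tlr9. A match of letters is a description and shows no binding.

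Levels below were put on a common scale through the on column that the tables share, and changes are log2((off FPKM + 1)/(on FPKM + 1)) within each deposited table, a scale that understates the change of low genes. Nras, which checks the labels only weakly because the tables do not separate a transgene from the cells' own gene, was at 23.6 FPKM in the on library and 16.5, 17.4 and 18.8 FPKM at 48 h, 72 h and 96 h. Depth is not given with FPKM. From the steps of low values, an off library held 1.15, 1.04 and 1.19 times as many reads per unit of FPKM as the on library, in order of time. All 20 pan-leukocyte genes reached 1 FPKM, and their summed level ran from 5292 FPKM on to 3845, 3080 and 2373 FPKM off. Of 13 B cell genes, 9 stayed under 1 FPKM in every library, and Pax5 was listed at 0 in all 4. Beta and other non-alpha globins took 2.07% of summed FPKM outside short RNAs on and 6.88%, 10.8% and 11.9% off. Alpha globins were left out of that share. Of the erythroid genes, 19 of 20 passed the test as higher. The exception was the alpha globin Hba-a1, listed at 0 in the 96 h library only, and the source of that 0 was not tested. In such bulk samples, fewer cells of a type and less RNA per cell cannot be told apart.

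Most of the 10 genes were lower once NRASG12V was off, with Cd14 and Myd88 furthest down in the mean over the 3 times, while Tlr4, Tlr8 and Tlr9 were above the on library at 48 h. At 96 h Tlr13 was further down (-1.21) than Myd88 (-1.11). In the on library the order was Myd88, Cd14, Tlr13, Tlr2, Tlr9, Ly96, Tlr7, Tlr1, Tlr4 and Tlr8, from 49.5 down to 2.96 FPKM. At 48 h, 72 h and 96 h the median change of the 10 was -0.23, -0.39 and -0.71, against -0.14, -0.07 and -0.06 over all genes reaching 1 FPKM. Members below the on library numbered 7, 9 and 10 at the 3 times, and members above it 3, 1 and 0. Of all genes reaching 1 FPKM, 39.7%, 45.3% and 45.9% lay above it. At least 2-fold lower was 1 gene at 48 h (4.85% of 11739 genes were), 1 at 72 h (5.76% of 11746) and 3 at 96 h (8.16% of 11729). None was 2-fold higher at any time, where 5.0%, 6.61% and 7.39% of all genes were.

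In 7 of the 10 genes the on value exceeded every off value, a pattern that 45.7% of the 11958 tested genes showed, and in none did all 3 lie above it (33.4% of tested genes). Tlr2, Tlr7, Cd14, Ly96 and Myd88 (5 genes) stepped down in order from on to 48 h, 72 h and 96 h, as 12.9% of tested genes did. Among pan-leukocyte genes, 18 of 20 stepped down in that order. Of the 10 genes, 9 had their lowest level at 96 h, and the exception was Tlr9, lowest at 72 h. The share of all genes lowest at 96 h was not counted, so that number has no background beside it. With each time sampled by 1 library, the order of the times has no replicate check.

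A limma fit then set the off libraries together, as 3 samples of 1 state, against the on library. It counts differences between times as spread and assumes that the single on library varies like the others. Of the 10 genes, 2 passed as lower (Cd14 and Myd88), none as higher, and 8 did not pass. Over all tested genes, 15.2% passed as lower and 11.8% as higher, so that 43.7% of calls were higher. That split became 55.8% higher with the median change set to 0 and 66.7% with a sum that leaves out globins and short RNAs. The median limma change of the 10 was -0.41, beside -0.08 for all genes tested.

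**Figure D1:**
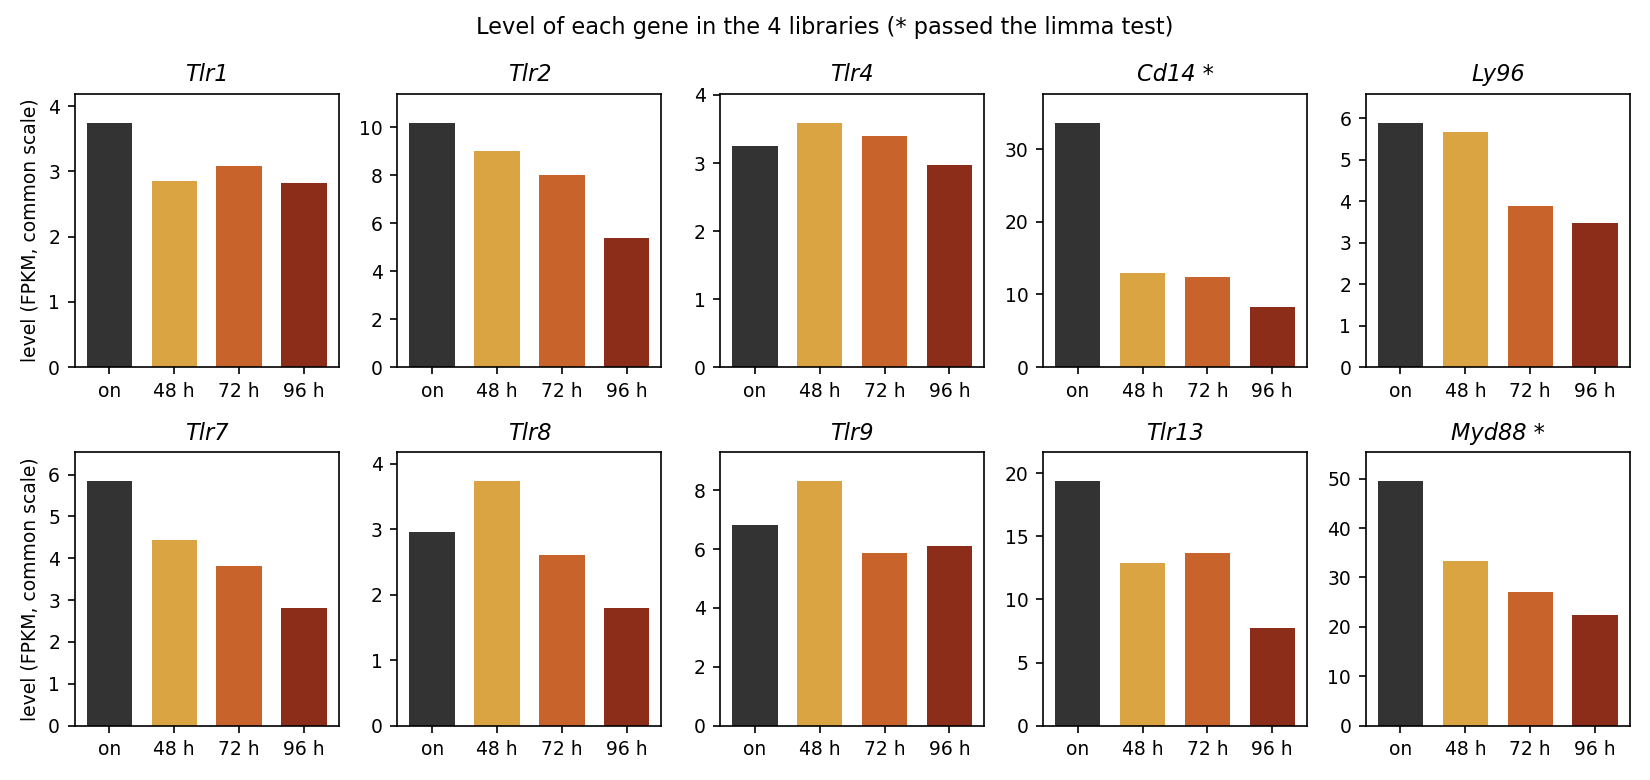
Level (FPKM on the common scale, each axis from 0) of the 10 genes in the on library and at 48 h, 72 h and 96 h off, 1 bar per library; an asterisk marks genes that passed limma. Cd14 drops from 33.6 to 13 FPKM by 48 h, whereas Tlr4 stays between 2.97 and 3.59 FPKM.

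In the lipopolysaccharide receptor, carrier and receptor went apart. Cd14, the membrane or soluble protein that loads lipopolysaccharide onto the Tlr4 complex, stood at 33.6 FPKM in the on library, then at 13, 12.5 and 8.28 FPKM in order of time. Every off library was far under the on library, at 38.7%, 37.1% and 24.6% of it. The changes were -1.31, -1.36 and -1.90, and over the 3 times Cd14 fell by 1.52 ± 0.33 on the log2 scale (SD, n = 3 off libraries; limma, Benjamini-Hochberg adjusted p = 0.00496). It passed in every alternative fit but the one with no filter on low values, in which adjusted p was 0.216. Without that filter 4 of 23235 genes passed as higher and 277 as lower.

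Ly96, the small protein that completes the lipopolysaccharide pocket of Tlr4, was at 5.88 FPKM on and 5.66, 3.89 and 3.47 FPKM off. The 48 h library was close to the on library and the later pair was lower. Its mean change of -0.39 ± 0.30 did not pass (limma, Benjamini-Hochberg adjusted p = 0.260), but without the 48 h library it did (adjusted p = 0.0445, from 0.0445 to 0.675 over all alternatives).

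Tlr4 itself, the signalling receptor, was at 3.26 FPKM on and 3.59, 3.40 and 2.97 FPKM off. The on value lay inside the range of the off values. The mean change was 0.02 ± 0.11 (limma, Benjamini-Hochberg adjusted p = 0.948), with a standard error of 0.18. Cd14 and Ly96 ended in different proportion: Cd14 stood at 5.71 times Ly96 on and at 2.30, 3.20 and 2.38 times off.

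Both surface receptors for lipoproteins were lower in every off library, and neither passed in the main fit. Tlr2, which binds bacterial lipoproteins with a partner, was at 10.2 FPKM on and 9.02, 7.99 and 5.39 FPKM off. The off libraries were all lower, by little at 48 h and to 52.9% of the on level at 96 h. The mean change was -0.43 ± 0.34 (limma, Benjamini-Hochberg adjusted p = 0.249). Tlr2 did pass in an alternative fit, though in none that left out an off library. Tlr1, the partner for triacylated lipoproteins, was at 3.74 FPKM on and 2.85, 3.08 and 2.83 FPKM off. Those off values were nearly level with one another and all below the on value, a change of -0.28 ± 0.05 that did not pass (adjusted p = 0.252). RefSeq lists Tlr6, the alternative partner, beside Tlr1 on the chromosome; the genes are close paralogues, so reads may be divided between them. Tlr6 fell by 0.95 ± 0.37, from 5.32 to 2.89, 2.73 and 1.43 FPKM (limma, Benjamini-Hochberg adjusted p = 0.0341). It no longer passed with the median change set to 0 (adjusted p = 0.0751, up to 0.352 over all alternatives).

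Of the endosomal receptors, Tlr13 and Tlr7 were lower in every off library and Tlr8 and Tlr9 were not, and none of the 4 passed the test. Tlr13, the receptor for bacterial ribosomal RNA, had the highest level of the 7 receptors in every library, at 19.4 FPKM on and 12.9, 13.7 and 7.76 FPKM off. All off libraries were lower, and the 96 h library stood apart from the earlier pair at 40.1% of the on level. The mean change of -0.75 ± 0.41 did not pass (limma, Benjamini-Hochberg adjusted p = 0.0895), although it did without the 72 h library (adjusted p = 0.0294, from 0.0098 to 0.488 over all alternatives).

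Tlr7, which reads single-stranded RNA, was at 5.84 FPKM on and 4.43, 3.81 and 2.82 FPKM off. It declined at each time, to 48.2% of the on level. The mean change was -0.56 ± 0.26 (limma, Benjamini-Hochberg adjusted p = 0.0969). Without the 48 h library it passed (adjusted p = 0.0335, from 0.00918 to 0.422 over all alternatives).

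Tlr8, its neighbour on the X chromosome and a reader of RNA as well, was at 2.96 FPKM on and 3.73, 2.60 and 1.79 FPKM off. The 48 h library was above the on library and the others below. Its mean change was -0.13 ± 0.38 (limma, Benjamini-Hochberg adjusted p = 0.751). Tlr7 stood at 1.97 times Tlr8 on and at 1.19, 1.46 and 1.57 times off, so the pair moved by different amounts.

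Tlr9, the receptor for CpG DNA, was at 6.83 FPKM on and 8.30, 5.87 and 6.09 FPKM off. It too was above the on library at 48 h only. The mean change was -0.03 ± 0.24 (limma, Benjamini-Hochberg adjusted p = 0.938). Neutrophil genes, 17 of 18 of which were found, had a summed level of 28554 FPKM on and 45775, 41140 and 29499 FPKM off. S100a8 and S100a9 made up 62.5% of that sum on and 70.3% at 48 h. Of the 17 genes, 11 were highest at 48 h, 4 on and 2 at 72 h. The sums of the monocyte and macrophage list (3372 FPKM) and the dendritic list (4329 FPKM) were also highest at 48 h. A few abundant genes can carry such sums. Gene by gene, the median change at 48 h was -0.02 for the monocyte and macrophage list and 0.28 for the dendritic list. In the former, 12 of 23 genes were below the on library at every time. The part of these cells in the Tlr8 and Tlr9 values was not tested.

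Myd88, the shared adaptor, was the most abundant of the 10 genes in every library, at 49.5 FPKM on and 33.4, 27.1 and 22.4 FPKM off. Each time was lower than the one before, ending at 45.2% of the on level. The changes were -0.55, -0.84 and -1.11, and over the 3 times Myd88 fell by 0.84 ± 0.28 (SD, n = 3; limma, Benjamini-Hochberg adjusted p = 0.0354). The call was lost without the 72 h library (limma, adjusted p = 0.0679) and with the median change set to 0 (adjusted p = 0.0731). It was lost as well with the sum without globins and short RNAs, without trend and robust settings, and with no filter on low values. Over all alternatives the limma adjusted p ran from 0.000145 to 0.309. Summed over the 7 receptors, levels were 52.2 FPKM on and 44.8, 40.4 and 29.6 FPKM off.

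Few neighbours in the order of mean off level differed beyond their range. Myd88 (27.6 ± 5.54 FPKM, SD, n = 3) did not overlap the next gene, and Tlr9 (6.75 ± 1.35 FPKM) did not overlap Ly96 (4.34 ± 1.16 FPKM). Every other pair of neighbours in that order, from Tlr13 (11.5 ± 3.22 FPKM) and Cd14 (11.2 ± 2.58 FPKM) to Tlr1 (2.92 ± 0.141 FPKM) and Tlr8 (2.71 ± 0.975 FPKM), overlapped in range.

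**Figure D2:**
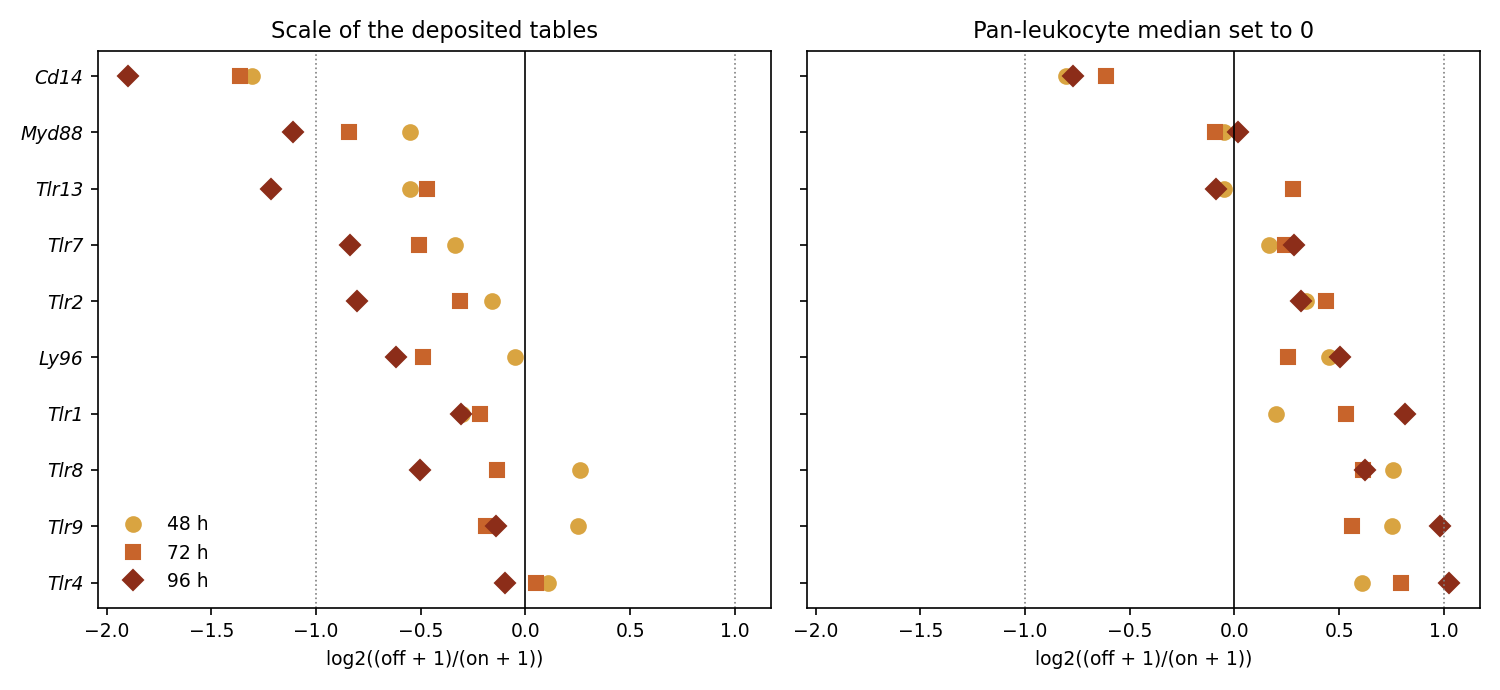
log2((off + 1)/(on + 1)) of each gene at 48 h (circles), 72 h (squares) and 96 h (diamonds), on the deposited scale (left) and after the median change of the pan-leukocyte list was set to 0 (right); dotted lines mark 2-fold. On the right every gene is raised by the same amount at each time, and Cd14 remains below 0 at all 3.

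The pan-leukocyte list, used as another baseline, had median changes of -0.50, -0.75 and -1.13 at the 3 times. With that median set to 0, a choice made by list and not by a measured cell number, the median of the 10 genes turned to 0.27, 0.36 and 0.41, and 7, 8 and 8 of them lay above the on library. The setting raises every gene by the same amount, and 76.9%, 88.1% and 93.9% of all genes then lay above it, against 39.7%, 45.3% and 45.9% before. The sign of small changes is thus set by the choice of baseline. Among the 10 genes, Cd14 alone was then below it at every time (-0.81, -0.61 and -0.77). Myd88 came to -0.05, -0.10 and 0.02, so its values were close to the list's median. Tlr4 came to 0.61, 0.80 and 1.03 and Tlr9 to 0.75, 0.56 and 0.98. Milder scalings than that were the median of all genes set to 0 and the sum without globins and short RNAs. The first moved all values by 0.15, 0.09 and 0.07. The second moved them by a median of 0.10, 0.11 and 0.09 over all 23235 genes, unexpressed genes included, which hardly move. The median of the 10 genes moved by more under the second, from -0.23, -0.39 and -0.71 to -0.05, -0.18 and -0.56. Under the first it came to -0.08, -0.30 and -0.64, so it stayed below 0 at each time under both. Above the on library lay 4, 1 and 0 members under the first and 5, 3 and 2 under the second. By construction the first puts as many genes above as below, among those reaching 1 FPKM in both libraries. For the second, the share of all genes above the on library was not counted.

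**Figure D3:**
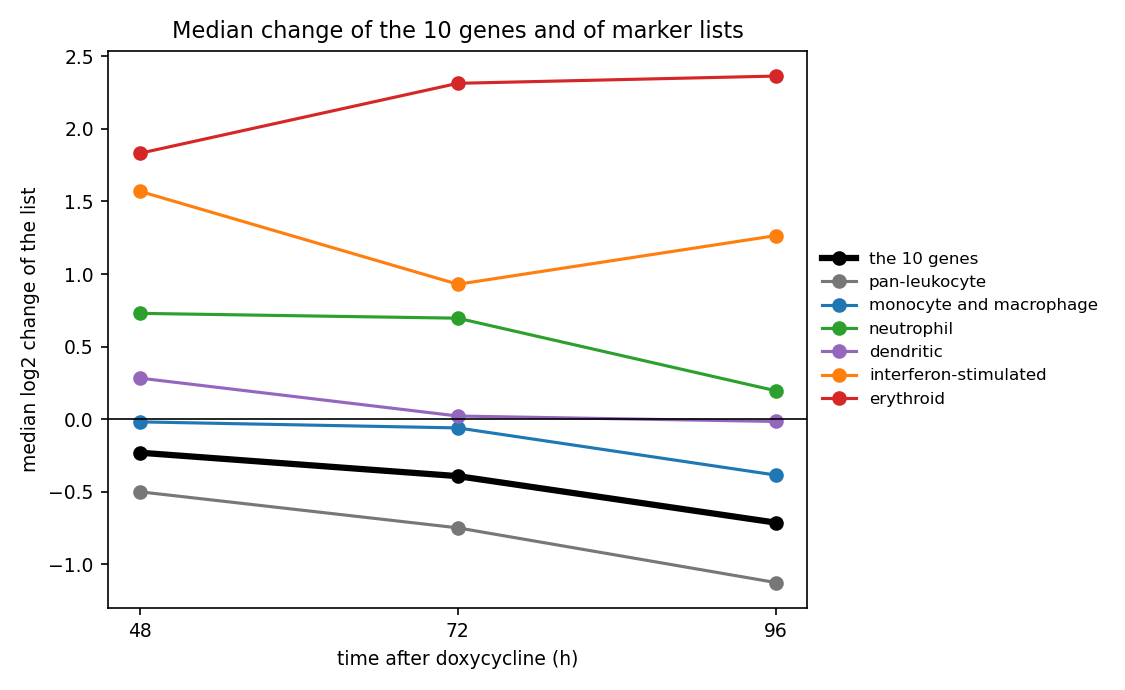
Median log2 change (y axis) of the 10 genes and of 6 marker lists at 48 h, 72 h and 96 h (x axis), relative to the on library. The 10 genes run from -0.23 to -0.71, between the pan-leukocyte list (-0.50 to -1.13) and the monocyte and macrophage list (-0.02 to -0.38).

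Marker lists of the cells that carry these receptors went different ways. All 23 monocyte and macrophage genes reached 1 FPKM, none was listed at 0, and their summed level was 2954 FPKM on and 3372, 2868 and 2116 FPKM off; 7 passed as lower and 2 as higher. Trem2, a macrophage receptor, fell by 3.0 ± 0.56 and the monocyte transcription factor Klf4 by 2.47 ± 0.32, while Timd4, a receptor of resident macrophages, rose by 1.62 ± 0.08 (limma, Benjamini-Hochberg adjusted p from 0.00114 to 0.00217). Of 17 neutrophil genes measured, 7 rose and 4 fell; the collagenase Mmp8 rose by 2.52 ± 0.43 and the primary granule protease Ctsg fell by 3.68 ± 0.16 (adjusted p = 0.00182 and 7.67e-05). Of 16 tested dendritic cell genes 5 rose and 1 fell, and the list of 17 summed to 3938 FPKM on and 4329, 3064 and 3038 FPKM off. Among the remaining lists, 5 T and NK genes of 10 tested rose (3 without the 48 h library) and 1 fell, 5 megakaryocyte genes of 10 rose (2 without the 72 h library, 9 with the sum without globins and short RNAs) and 1 fell, 6 endothelial and stromal genes of 11 rose and 1 fell, and 1 B cell gene of 4 moved each way. Without the 72 h library the endothelial and the dendritic faller did not pass, 2 B cell genes rose and 1 monocyte and macrophage gene rose. The part of each cell type in the receptor values was not tested.

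Closest in pattern to Cd14 over the 3 times, among 8874 genes reaching 5 FPKM, were Cd93 (a root mean square difference of 0.06 in log2 change), B4galt6 (0.07) and Pgm2 (0.07). Cd93, a glycoprotein of early myeloid and endothelial cells, was at 24.6 FPKM on and 9.27, 9.33 and 6.30 FPKM off. In all, 12 genes lay within 0.1 of Cd14. For Tlr4, the member with the highest mean change, the closest were Usp12 (0.01), Pcsk7 (0.02) and Numb (0.02), and 161 genes lay within 0.1. All of these changes share the 1 on library.

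Receptors outside the 10 differed most in the rodent pair that reads profilin of protozoa. Tlr11 rose by 1.77 ± 0.08, from 2.85 FPKM to 11.9, 12.9 and 11.5 FPKM (limma, Benjamini-Hochberg adjusted p = 0.0012). Its off values were close together and far above the on value. Its partner Tlr12 rose by 1.06 ± 0.29, from 0.767 FPKM to 3.29, 1.93 and 2.94 FPKM (adjusted p = 0.0132). Both passed in every alternative that tested them but the one with no filter (adjusted p = 0.0867 and 0.254); Tlr12 did not reach 5 FPKM, the higher filter. Clec9a and Xcr1, markers of the dendritic cells that cross-present antigen, rose by 1.95 ± 0.04 and 1.03 ± 0.16. Batf3, a factor of the same cells named here after its values were seen, did not pass, at 15.6 FPKM on and 19.1, 11.7 and 11 FPKM off. The whole dendritic list, with 5 of 16 higher and 1 lower, had a median of 0.02, and its part in the rise was not tested. Tlr3, which reads double-stranded RNA without Myd88, was at 10.2 FPKM on and 8.11, 8.27 and 6.68 FPKM off and did not pass (adjusted p = 0.184), nor did the flagellin receptor Tlr5, at 1.5 FPKM or less in every library (adjusted p = 0.884).

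The rest of the pathway was read from 8 lists with 121 genes, of which 109 were tested. Of these, 25 fell (22.9%, beside 15.2% of all genes), 13 rose (11.9%, beside 11.8%) and the median change was -0.37 (-0.08 over all genes). The lists were chosen with earlier results of these data known, so the shares are a description and no independent comparison. Of the 31 genes named from these lists, 28 kept their call under both milder scalings; Tlr6, Ticam1 and Dusp1 did not. Several counts of lower genes moved when 1 library was left out, as given with each list. So did the count over all 11958 tested genes, from 1817 lower to 2291 without the 48 h library and 1215 without the 72 h library. Of 18 partners and chaperones that bring receptors to their place or process them, 5 fell (10 without the 48 h library) and 1 rose, with a median of -0.58. Ly86, which pairs with the Tlr4 relative Cd180, fell by 1.39 ± 0.37, from 79.9 FPKM to 39.6, 28.8 and 23.4 FPKM. Lrrc33, a leucine-rich repeat protein related to the receptors, fell by 1.38 ± 0.11, and Lbp, the serum protein that passes lipopolysaccharide to Cd14, by 1.16 ± 0.24 (limma, Benjamini-Hochberg adjusted p from 0.00247 to 0.00988 for the 3). Pld3, an endolysosomal nuclease, rose by 0.68 ± 0.05, a call lost without the 72 h library (adjusted p = 0.166).

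Of 25 tested adaptors and kinases of the relay, 4 fell, 1 rose and 20 did not pass, with a median of -0.34. The share that fell, 16.0%, was near the 15.2% of all genes. Without the 48 h library 7 fell, and without the 72 h library 2 did. Irf5, the transcription factor that Myd88 activates towards cytokine genes, fell by 1.52 ± 0.30, from 91.0 FPKM to 39.6, 29.0 and 26.3 FPKM (limma, Benjamini-Hochberg adjusted p = 0.00465). Irf7, the factor for type I interferon downstream of the endosomal receptors, rose by 2.15 ± 0.53, from 7.92 FPKM to 53.2, 25.6 and 42.3 FPKM (adjusted p = 0.00446), a call lost with the slope of time as a covariate (adjusted p = 0.248). Irf7 is itself an interferon-stimulated gene, and 14 of 25 such genes rose and none fell, with a summed level of 139 FPKM on and 656, 383 and 560 FPKM off. Ikbke, a kinase of the interferon branch, fell by 1.02 ± 0.18 (limma, adjusted p = 0.00893). Ticam1, the adaptor of Tlr3 and, besides Myd88, of Tlr4, fell by 0.73 ± 0.16 (limma, adjusted p = 0.0282). Ticam1 lost its call without the 72 h library (adjusted p = 0.0925) and with the median change set to 0 (adjusted p = 0.0586).

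**Figure D4:**
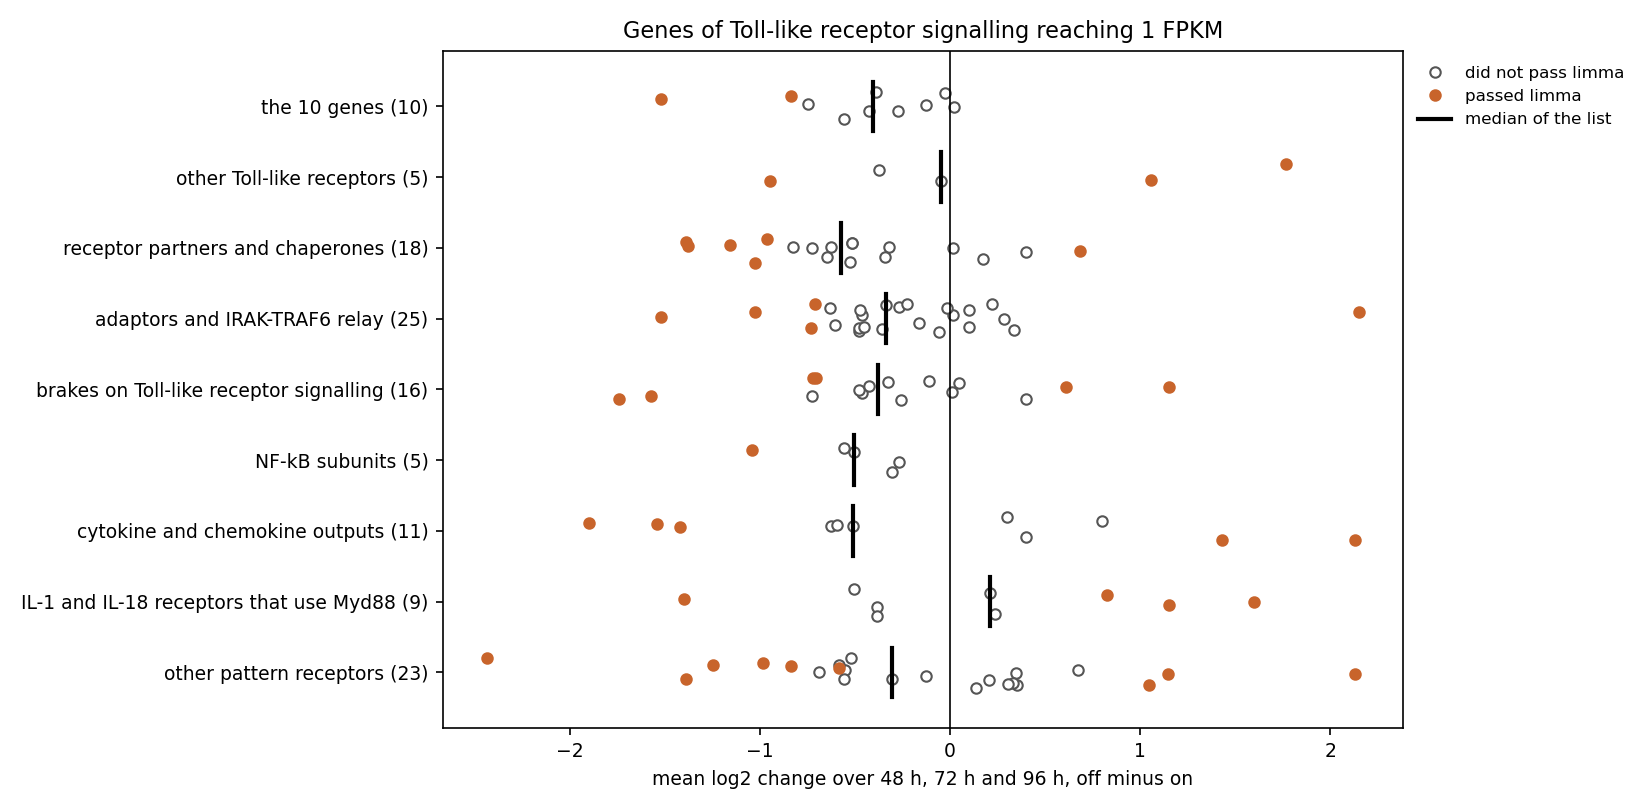
Mean log2 change over the 3 times (x axis) of each gene reaching 1 FPKM, by list (y axis, number of genes in brackets); filled points passed limma and black bars are medians. The medians lie between -0.58 for partners and chaperones and 0.21 for the IL-1 and IL-18 list.

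Further down the pathway, 1 of 5 NF-kB subunits passed as lower. Nfkb1, the p50 precursor, fell by 1.04 ± 0.21, from 78.4 FPKM to 42.7, 38.8 and 32.0 FPKM (limma, Benjamini-Hochberg adjusted p = 0.0117), and the other 4 subunits did not pass (1 more passed without the 48 h or the 96 h library). Of 16 brakes on the pathway, 4 fell and 2 rose (2 and 1 without the 72 h library). The inhibitor Nfkbia fell by 1.57 ± 0.24, from 116 FPKM to 45.4, 38.2 and 32.1 FPKM, and Tnip3, a binder of the A20 deubiquitinase, by 1.74 ± 0.16 (adjusted p = 0.00305 and 0.00133). The phosphatase Dusp1 fell by 0.72 ± 0.02 and Nfkbiz, an atypical inhibitor and coactivator, rose by 0.61 ± 0.08; both lost their calls without the 72 h library (adjusted p = 0.116 and 0.12).

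Cytokine outputs did not follow 1 direction. Only 11 of 22 reached 1 FPKM; 3 fell (6 without the 48 h library) and 2 rose (4 without the 72 h library). The chemokines Ccl3 and Ccl4 fell by 1.90 ± 0.40 and 1.54 ± 0.29, and Il12a, a subunit of interleukin-12, by 1.42 ± 0.16. Il1b, the interleukin-1 beta precursor, rose by 2.13 ± 0.37, from 2.08 FPKM to 15.9, 13.3 and 9.17 FPKM, and Ccl5 by 1.43 ± 0.32 (limma, Benjamini-Hochberg adjusted p from 0.00206 to 0.00612 for the 5). Ifnb1, for interferon beta, was listed at 0 in all 4 libraries. The IL-1 and IL-18 list held 9 genes: receptors that share Myd88, their ligands, an antagonist and a decoy receptor. Of these, 3 rose: the receptor antagonist Il1rn by 1.60 ± 0.37, the IL-33 receptor Il1rl1 by 1.15 ± 0.03 and the ligand Il18 by 0.83 ± 0.19. Only 1 fell, the decoy receptor Il1r2 (-1.40 ± 0.44, limma, Benjamini-Hochberg adjusted p from 0.00328 to 0.0218 for the 4). Il1rl1 also counts among the brakes.

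Receptors of other families for microbial molecules went both ways as well, with 6 of 23 lower (3 under either milder scaling) and 3 higher (5 without the 96 h library). The scavenger receptor Msr1 fell by 2.44 ± 0.44, the cytosolic DNA pathway protein Tmem173 by 1.39 ± 0.24 and the lectin Clec4e by 1.25 ± 0.37. The formyl peptide receptor Fpr1 rose by 2.13 ± 0.41, and the cytosolic RNA sensors Ifih1 and Ddx58 by 1.15 ± 0.16 and 1.05 ± 0.31 (limma, Benjamini-Hochberg adjusted p from 0.00182 to 0.0173 for the 6). Ifih1 and Ddx58 also belong to the interferon-stimulated list above.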

How the data were processed

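The authors deposited FPKM values for 23235 genes in 4 tables. The submitters' processing notes name TopHat2 2.0.4, Cuffdiff and the build mm9; for annotation, strand setting and Cuffdiff version, nothing is stated in the sources used. Each deposited FPKM table pairs on with 1 off time, or with a combined off value, and was scaled separately. The 0 h column was read as the on sample. After 1 factor per table it agreed within 0.1% for at least 99.9% of values, and through it the libraries were joined. The off libraries were compared with on by limma 3.58.1 (R 4.3.3, with statmod 1.5.0), applied to log2(FPKM + 1) for 11958 genes (1 FPKM or more in any library). The fit used trend and robust settings, had 2 residual degrees of freedom, and p-values were adjusted over all genes by Benjamini-Hochberg (threshold 0.05). Since nothing says that libraries are separate animals, the p-values reflect the spread between samples, which may be technical. FPKM carry no depth, so no counting error is given. Named genes are the 10 members, at most 3 risers and 3 fallers of each list among those that passed, the 3 genes most like the members with the highest and lowest mean change, and genes under 1 FPKM where needed; of 307 entries in 19 lists, 305 matched. The members and lists were chosen with earlier results of these data known. Exons of the 10 genes overlapped no exon of another gene in GENCODE M21. Alternatives were other pseudocounts (0.1 and 5 FPKM), filters, scalings and fits, and leaving out each off library. Fits with the slope of time or without 1 off library had fewer residual degrees of freedom than the main fit, so passing in them is weaker evidence. The slope also takes a steady trend between times out of the spread.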

Additional observations from a re-analysis of the deposited data

Results flagged for a closer look

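Tlr4, Tlr8 and Tlr9 were above the on library at 1 or more times and below it at another; with 1 library for each time, that difference was not tested. Tlr4 had log2 changes of 0.11, 0.049 and -0.10 at 48 h, 72 h and 96 h. Tlr8 had 0.26, -0.14 and -0.50, the widest span of the 3. Tlr9 had 0.25, -0.19 and -0.14.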

How the results depend on the processing

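No paired analysis was possible because each group holds 1 library. With the pan-leukocyte median set to 0, which raises every gene alike, the median change of the 10 genes reversed to 0.27, 0.36 and 0.41 at 48 h, 72 h and 96 h. Members at least 2-fold lower then went from 1, 1 and 3 to 0 at each time. At 96 h 1 gene (Tlr4) became 2-fold higher and Myd88 turned to 0.016. The median change of all genes reaching 1 FPKM was then 1.06 at 96 h, so most of them were 2-fold higher too. A pseudocount of 5 FPKM left 1 gene 2-fold lower at 96 h and a median of -0.41. In limma, members called lower went from 2 to 0 with no filter and to 5 with the slope of time as a covariate. The count was 1, Cd14 without Myd88, under 3 settings. These were the median change set to 0, the sum without globins and short RNAs, and the fit without trend and robust settings. Leaving out 1 off library gave 2 to 4 members lower (4 without 48 h). Over all 11958 tested genes, lower calls likewise went from 1817 to 2291, 1215 and 2197 without the 48 h, 72 h and 96 h library. Pathway genes called lower went from 25 to 0 with no filter, 16 with the sum without globins and short RNAs and 56 with the slope; leaving out 1 library gave 20 to 38 (38 without 48 h). Pathway genes called higher went from 13 to 0 with no filter and 13 to 15 when 1 library was left out. Over all genes, 1410 passed as higher and 1817 as lower, against 4 and 277 with no filter and 2458 and 3566 with the slope; with the sum without globins and short RNAs 1012 were lower. The small limma changes of Tlr4, Tlr8 and Tlr9 reversed under some settings. Leaving out 1 library gave -0.026 (without 48 h) to 0.079 for Tlr4, -0.32 to 0.060 (without 96 h) for Tlr8 and -0.17 to 0.053 (without 72 h; 0.030 without 96 h) for Tlr9. The sum without globins and short RNAs gave 0.028 for Tlr8 and 0.16 for Tlr9, and the median change set to 0 gave 0.054 for Tlr9. The cause was not tested. With no depth known, low levels such as that of Tlr8 have no counting interval.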
